A study of Mus musculus with 6 samples.

Results

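Glypicans and syndecans are membrane-bound heparan sulfate proteoglycans, and their transcripts were compared here between CD34hi and CD34lo fibroblasts of the pubertal mouse mammary gland. The group was defined by gene name as the 6 glypican genes (*Gpc1* to *Gpc6*) and the 4 syndecan genes (*Sdc1* to *Sdc4*), and all 10 were among the 27179 genes of the count table. Bulk RNA-seq had been performed on Lin-CD24-Pdgfrα+ cells sorted by FACS from FVB/N females at 6 weeks of age, where Lin denotes the blood and endothelial antigens CD45, TER-119 and CD31. These mice were neither treated nor genetically modified, and the groups differed only in the CD34 gate. Each of 3 pools of 2 mice was split into a CD34hi and a CD34lo fraction, giving 3 libraries per group, and equal pool numbers mark cells from the same mice. A library is therefore the average of 2 animals and of all cells within a sort gate. Unless a block is named, p-values come from a fit that leaves out the pairing by pool. They set the group difference against the spread of the 3 libraries within each group, with each gene's variance drawn toward that of the other genes.

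A proteoglycan of this kind is a core protein to which long sulfated sugar chains, the heparan sulfate, are attached. The chains bind growth factors and morphogens of the FGF, Hedgehog, Wnt, BMP and chemokine families and can hold them at the cell surface or present them to their receptors. Glypicans are tethered to the outer membrane leaflet by a glycosylphosphatidylinositol (GPI) anchor, whereas syndecans span the membrane and end in a short cytoplasmic tail that binds adaptor and cytoskeletal proteins. In the pubertal mammary gland, ducts branch into a fibroblast-containing stroma, and FGF, Wnt and Hedgehog family ligands, which bind heparan sulfate, act between these compartments.

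The syndecan genes share their last coding bases, shown here because this stretch both defines the family and encodes the end of the cytoplasmic tail. Partners of the tail are described further on. The sequences are the last 60 coding bases and the stop codon of each gene, read 5′ to 3′ on the coding strand from GENCODE vM21 transcripts (build GRCm38), and all of them lie in exon 5 of 5. Capitals mark the last 12 coding bases, which encode the C-terminal end that PDZ domain proteins bind.
Sdc1, chr12:8791745-8791807, plus strand: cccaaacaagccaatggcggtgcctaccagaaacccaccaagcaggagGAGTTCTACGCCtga
Sdc2, chr15:33032478-33032540, plus strand: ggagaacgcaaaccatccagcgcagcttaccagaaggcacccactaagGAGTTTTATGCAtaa
Sdc3, chr4:130822747-130822809, plus strand: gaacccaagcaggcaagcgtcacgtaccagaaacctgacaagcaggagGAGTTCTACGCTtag
Sdc4, chr2:164426086-164426148, minus strand: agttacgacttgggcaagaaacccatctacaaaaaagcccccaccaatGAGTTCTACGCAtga
Between any pair of genes, 9 to 11 of the 12 capital bases were identical. All 60 coding bases were compared position by position, with no gaps allowed. Identity was then highest for *Sdc1* with *Sdc3* (37 bases) and for *Sdc2* with *Sdc4* (30 bases), and it was 21 to 25 bases for the other pairs. Shared codons that lie out of register are not counted this way.

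The 6 libraries held between 28764779 and 52402410 counts. CD34hi libraries correlated with each other at r = 0.9836 to 0.9908 over log2 CPM (counts scaled to library size), and CD34lo libraries at 0.9768 to 0.9798. Within CD34hi, the library of pool 3 was the one farthest from the others, and it recurs below for *Sdc3*. Between the groups, the CD34lo library of pool 2 correlated with the CD34hi libraries at r = 0.9122 to 0.9184. The CD34lo libraries of pools 1 and 3 did so at 0.8918 to 0.9076. Within CD34lo, the library of pool 2 also had the highest *Cd34*, at 793.0 CPM against 476.5 and 631.5 CPM. Its part in the pool 2 values given below was not tested. As a check of the sort, *Cd34* was higher in CD34hi (log2 fold change 2.02, SE 0.199, adjusted p = 9.7e-05, quasi-likelihood test in edgeR, Benjamini-Hochberg). The 5 fibroblast markers (*Dcn*, *Lum*, *Pdgfra*, *Col1a2*, *Igfbp5*) summed to 28390 to 31860 CPM in CD34hi and to 31500 to 36430 CPM in CD34lo. Of these, *Igfbp5* was higher in CD34hi (log2 fold change 3.45), *Lum* (-1.28), *Pdgfra* (-0.74) and *Col1a2* (-0.69) were higher in CD34lo, and *Dcn* was not called.

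CD34lo fibroblasts had higher *Gpc1*, *Sdc1* and *Sdc4*, and CD34hi fibroblasts had higher *Gpc3* and *Gpc6*. *Gpc1* was 11.3-fold and *Sdc1* 9.07-fold higher in CD34lo, and the other called members differed by 1.52-fold to 1.95-fold. Of the 9 members with enough counts to be tested, 2 rose in CD34hi, 3 rose in CD34lo and 4 did not pass the test (edgeR, adjusted p under 0.05 over all genes). Across all 15219 genes tested, 35.6% were called, 16.9% as higher in CD34hi and 18.7% as higher in CD34lo. The CPM ranges of the groups did not overlap for 6 of the 9 members, against 50.1% of all genes tested. The median log2 fold change, CD34hi over CD34lo, was -0.22 over the 9 members and -0.0064 over all genes. In bulk RNA, fewer cells expressing a gene and less RNA per cell cannot be told apart.

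**Figure D1:**
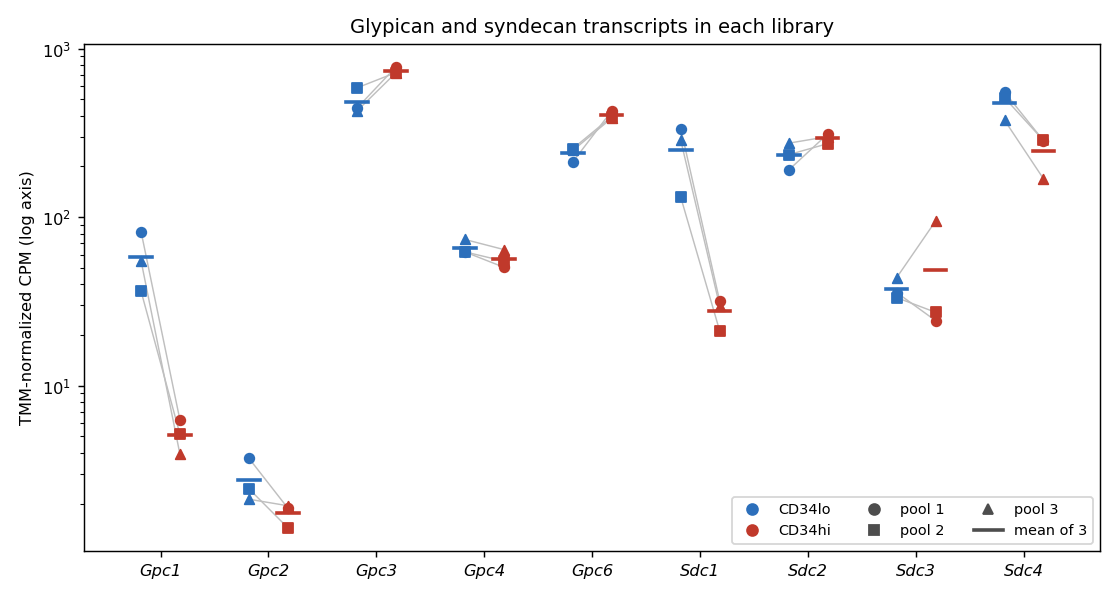
TMM-normalized CPM (log axis) of the 9 detected members in each of the 6 libraries, with CD34lo in blue, CD34hi in red, symbols for the mouse pools, lines joining libraries of the same pool and bars for the mean of 3. *Gpc1* and *Sdc1* lay far lower in every CD34hi library than in any CD34lo library, and *Sdc3* was high in 1 CD34hi library, at 94.8 CPM.

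Of the glypicans, *Gpc1* differed most. *Gpc1* (gene ID 14733, chr1:92831686-92860196, plus strand, GRCm38) encodes a glypican known as a co-receptor for FGF and VEGF family ligands. Its level was 82.1, 36.4 and 55.1 CPM in CD34lo pools 1, 2 and 3, and 6.26, 5.16 and 3.93 CPM in CD34hi pools 1, 2 and 3. Even the lowest CD34lo library, that of pool 2, was well above the highest CD34hi library. Group means were 57.8 ± 23.0 CPM in CD34lo and 5.12 ± 1.17 CPM in CD34hi (SD, n = 3). The log2 fold change was -3.50 (SE 0.312, 95% CI -4.21 to -2.79, adjusted p = 5.5e-05, edgeR), and the pools gave -3.71, -2.82 and -3.81.

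*Gpc3* and *Gpc6* were the glypicans that were higher in CD34hi, by smaller factors. *Gpc3* (gene ID 14734, chrX:52272426-52613974, minus strand) encodes a glypican known to bind Hedgehog ligands and to restrain their signal. It measured 778.2, 720.8 and 718.7 CPM in CD34hi pools 1 to 3 and 443.8, 585.4 and 426.9 CPM in the CD34lo pools. The groups did not overlap, but pool 2 showed less of a difference than the others, with log2 ratios of 0.81, 0.30 and 0.75 in pools 1, 2 and 3. The means were 739.2 ± 33.7 and 485.4 ± 87.1 CPM (SD, n = 3), a 1.52-fold difference (log2 fold change 0.61, SE 0.154, adjusted p = 0.0146, edgeR). Without the CD34lo library of pool 3 the call was lost (0.53, adjusted p = 0.0508, edgeR).

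*Gpc6* (gene ID 23888, chr14:116925315-117979529, plus strand) encodes a glypican required for long bone growth. Its level was 427.5, 395.3 and 387.5 CPM in CD34hi and 212.9, 255.2 and 248.8 CPM in CD34lo. All CD34hi libraries were above all CD34lo libraries, with means of 403.4 ± 21.2 and 239 ± 22.8 CPM (SD, n = 3). The difference was 1.69-fold (log2 fold change 0.76, SE 0.125, 95% CI 0.470 to 1.04, adjusted p = 0.00174, edgeR).

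The remaining glypicans were not called. *Gpc4* (gene ID 14735, chrX:52053018-52164923, minus strand), known as a growth factor co-receptor, measured 50.5, 54.9 and 64.3 CPM in CD34hi and 62.2, 62.3 and 73.8 CPM in CD34lo. The ranges overlapped, although CD34lo was above CD34hi within each pool (log2 fold change -0.22, 95% CI -0.521 to 0.072, adjusted p = 0.216, edgeR). *Gpc2* (gene ID 71951, chr5:138273660-138279937, minus strand), best known from developing neurons, was low, with 1.88, 1.44 and 1.94 CPM in CD34hi and 3.71, 2.45 and 2.12 CPM in CD34lo. Its ranges did not overlap, yet the difference did not pass the test (-0.66, 95% CI -1.31 to -0.011, adjusted p = 0.105, edgeR). *Gpc5* (gene ID 103978, chr14:115092215-116525192, plus strand) had 0 counts in all 6 libraries, and 3 counts, the limit that a count of 0 allows, would correspond to 0.0573 to 0.104 CPM in a library.

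In the genome, 4 of the glypican genes lie in pairs, and the neighbours differed in level. On chromosome X, *Gpc4* and *Gpc3* are 107.5 kb apart with no other gene of the table between them. Per kilobase of exon, *Gpc3* exceeded *Gpc4* 11.5 to 15.8 times in the CD34hi libraries and 5.93 to 9.63 times in the CD34lo libraries. On chromosome 14, 400.1 kb separate *Gpc5*, which had 0 counts, from *Gpc6*, the glypican next to *Gpc3* in level.

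Among the syndecans, *Sdc1* and *Sdc4* were higher in CD34lo. *Sdc1* (gene ID 20969, chr12:8771396-8793688, plus strand) encodes the syndecan typical of epithelia and plasma cells, which is also induced in the stroma of wounds and tumours. It was at 335.7, 131.3 and 285.6 CPM in CD34lo pools 1 to 3 and at 31.9, 21.2 and 29.8 CPM in CD34hi. No library overlapped, and pool 2 was the lowest of both groups. The means were 250.8 ± 106.5 CPM in CD34lo and 27.6 ± 5.66 CPM in CD34hi (SD, n = 3), with a log2 fold change of -3.18 (SE 0.339, 95% CI -3.95 to -2.41, adjusted p = 0.000149, edgeR).

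*Sdc4* (gene ID 20971, chr2:164424247-164443188, minus strand) encodes the widely expressed syndecan of focal adhesions, which cooperates with integrins on fibronectin. It was at 551.5, 510.7 and 375.8 CPM in CD34lo and at 284.8, 285.6 and 169.1 CPM in CD34hi. Pool 3 was the lowest in both groups, and the ranges did not overlap. The log2 ratios of the pools were close together at -0.95, -0.84 and -1.15, and the fitted value was -0.96 (SE 0.230, adjusted p = 0.0112, edgeR), or 1.95-fold higher in CD34lo.

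*Sdc2* and *Sdc3* were not called. *Sdc2* (gene ID 15529, chr15:32920723-33034721, plus strand), the main syndecan of many mesenchymal cells, measured 311.3, 273.1 and 300.6 CPM in CD34hi and 190.6, 235 and 275 CPM in CD34lo. CD34hi was higher within each pool, but the lowest CD34hi value lay under the highest CD34lo value (log2 fold change 0.34, 95% CI -0.011 to 0.686, adjusted p = 0.121, edgeR). Without the CD34lo library of pool 3 the difference passed the test (0.47, adjusted p = 0.0482, edgeR).

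*Sdc3* (gene ID 20970, chr4:130792537-130826318, plus strand), known from neural tissue and muscle progenitors, was decided by 1 library. It measured 24.4, 27.3 and 94.8 CPM in CD34hi pools 1, 2 and 3 against 35.7, 33.3 and 43.8 CPM in CD34lo. The CD34hi library of pool 3 was above all others, whereas the other CD34hi libraries were below all CD34lo libraries. With all libraries the log2 fold change was 0.38 (SE 0.463, 95% CI -0.676 to 1.43, adjusted p = 0.567, edgeR). Without the CD34hi library of pool 3 it was -0.54 (adjusted p = 0.0292, edgeR). The same library was also the highest of its group for *Ndst3* (6.42 against 1.83 and 1.74 CPM) and *Agrn* (268.1 against 118.7 and 140.7 CPM), and the lowest for *Cd44* (129.9 against 332.3 and 250.6 CPM).

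**Figure D2:**
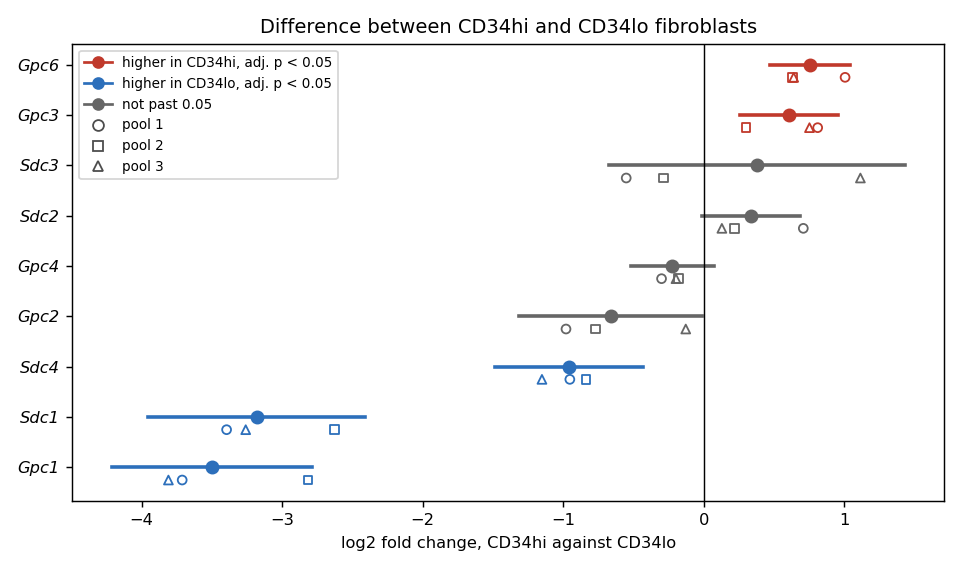
Fitted log2 fold change of CD34hi against CD34lo for the 9 tested members (filled circles, edgeR) with 95% confidence intervals (lines) and the log2 ratio of each mouse pool (open symbols). *Gpc6* and *Gpc3* lie above 0, *Sdc4*, *Sdc1* and *Gpc1* lie below 0 with intervals that exclude it, and the pools of *Sdc3* fall on both sides. The interval of *Gpc2* (-1.31 to -0.011) also excludes 0, although *Gpc2* was not called (adjusted p = 0.105, edgeR).

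Levels of different genes were compared per kilobase of exon, as RPKM from TMM-normalized counts. *Gpc3* was the most abundant member in CD34hi at 325.8 ± 14.9 RPKM (SD, n = 3), above every other member in all 3 libraries. It was followed by *Sdc4* (100.2 RPKM) and *Sdc2* (89.0 RPKM), whose ranges overlapped, and then by *Gpc6* (59.7 RPKM) and *Gpc4* (24.3 RPKM). *Sdc3* (9.82 RPKM) and *Sdc1* (9.04 RPKM) overlapped, and *Gpc1* (1.44 RPKM) and *Gpc2* (0.697 RPKM) were the lowest of those detected. In CD34lo, *Gpc3* (213.9 ± 38.4 RPKM) and *Sdc4* (194.9 ± 37.4 RPKM) overlapped at the top. *Sdc1* came next at 82.1 RPKM, within the range of *Sdc2* at 70.5 RPKM, followed by *Gpc6* (35.3 RPKM), *Gpc4* (28.4 RPKM) and *Gpc1* (16.3 RPKM). The ranges of *Gpc6* and *Gpc4* overlapped there, although *Gpc6* was the higher in each library.

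Summed RPKM described the balance of the families, with no test made on the sums. Glypican transcripts summed to 430.4, 401.8 and 403.6 RPKM in CD34hi pools 1 to 3 and to 278.4, 333.8 and 273.0 RPKM in CD34lo. Syndecan transcripts summed to 225.1, 211.0 and 188.3 RPKM in CD34hi and to 398.7, 328.2 and 338.0 RPKM in CD34lo. Neither family's ranges overlapped, glypicans being higher in CD34hi and syndecans in CD34lo, while both families together were at 620 ± 32.4 RPKM in CD34hi and 650 ± 34.7 RPKM in CD34lo (SD, n = 3). *Gpc3* made up 79.1% of glypican RPKM in CD34hi and 72.2% in CD34lo, whereas *Gpc1* made up 0.348% and 5.68%. Of syndecan RPKM, *Sdc1* contributed 4.37% in CD34hi and 22.8% in CD34lo, and *Sdc2* 43.0% and 20.2%, with *Sdc4* at 47.7% and 54.9%. Shares and order depend on the division by exon length, which is 6762 bases for *Gpc6* and 2269 for *Gpc3*. In mean CPM of CD34hi, *Gpc6* (403.4) was nearer to *Gpc3* (739.2) and above *Sdc2* (295.0) and *Sdc4* (246.5). In CD34lo, *Gpc6* (239.0 CPM) remained below *Sdc4* (479.3) and *Sdc1* (250.8).

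**Figure D3:**
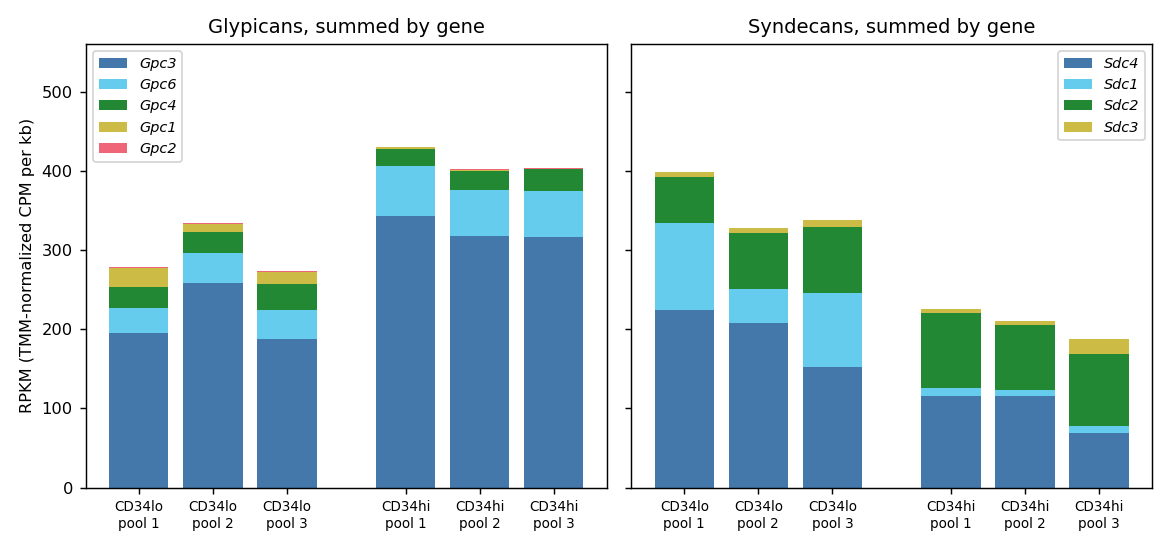
RPKM stacked by gene for glypicans (left) and syndecans (right) in each of the 6 libraries, labelled by group and mouse pool, with the bar height giving the family sum. Glypican sums were 273.0 to 333.8 RPKM in CD34lo and 401.8 to 430.4 RPKM in CD34hi, and *Sdc1* held 22.8% of the syndecan sum in CD34lo and 4.37% in CD34hi.

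Because *Sdc1* and *Sdc4* were both higher in CD34lo, their promoters are shown as the 250 bases before the RefSeq start (GRCm38.p6), 5′ to 3′ on the gene's strand. Capitals mark GC boxes (GGGCGG, the core that Sp1 family factors bind) and CCAAT boxes (CCAAT) on either strand.
Sdc1, chr12:8771146-8771395, plus strand: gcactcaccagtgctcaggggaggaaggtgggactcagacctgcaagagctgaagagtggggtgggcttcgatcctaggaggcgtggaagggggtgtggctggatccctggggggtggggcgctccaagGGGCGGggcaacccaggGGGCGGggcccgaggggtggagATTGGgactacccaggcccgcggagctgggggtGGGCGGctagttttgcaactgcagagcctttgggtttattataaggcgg
Sdc4, chr2:164443189-164443438, minus strand: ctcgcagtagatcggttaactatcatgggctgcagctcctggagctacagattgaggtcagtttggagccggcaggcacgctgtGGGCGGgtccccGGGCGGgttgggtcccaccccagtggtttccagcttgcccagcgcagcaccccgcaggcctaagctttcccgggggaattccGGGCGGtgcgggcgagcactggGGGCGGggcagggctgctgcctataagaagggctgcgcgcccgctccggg
*Sdc1* held 3 GC boxes and 1 CCAAT box, and *Sdc4* held 4 GC boxes. RefSeq promoters of 300 bases (250 before to 50 after the start) were matched for 7 of the 10 members, all but *Gpc1*, *Gpc6* and *Sdc2*. Each of the 7 held at least 1 GC box, as did 35.9% of 27025 promoters, and these included *Gpc5*, which had no counts, and members that rose in either group. The 7 windows were 54.7% to 77.7% G and C, against a median of 52.7% over all promoters. The part of base composition in the GC box count was not tested. A CCAAT box was found in *Gpc2*, *Gpc3* and *Sdc1* (37.9% of all promoters), and a TATA box (TATAAA) in *Gpc5* (14.2% of all). The Gli binding letters TGGGTGGTC, searched because Gli factors carry the Hedgehog signal, were in 0.244% of all promoters and in none of these 7 windows.

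Of 12 genes for enzymes that build the linker and chain of heparan sulfate, 2 were higher in CD34hi and 3 in CD34lo, with a median log2 fold change of 0.07. These 41.7% called were close to the 35.6% of all genes. *Ext1*, a subunit of the chain polymerase and the most abundant transcript of this list per length, measured 322.5, 354.4 and 304.7 CPM in CD34hi and 180.3, 127.6 and 170.4 CPM in CD34lo (log2 fold change 1.04, SE 0.155, adjusted p = 0.001, edgeR). No libraries overlapped for *Ext1*. *Extl2*, which can stop chain growth, was also higher in CD34hi (0.62, adjusted p = 0.00449, edgeR). *Xylt1* (-1.04, adjusted p = 0.00425, edgeR) and *Xylt2* (-0.51, adjusted p = 0.03, edgeR), the xylosyltransferases that start every chain, and *Extl3*, which adds the first chain sugar (-0.57, adjusted p = 0.00571, edgeR), were higher in CD34lo. The *Xylt2* call was lost without any one of the CD34hi libraries of pools 1 and 2 or the CD34lo libraries of pools 1 and 3 (adjusted p = 0.0784 to 0.14, edgeR).

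Among the enzymes that modify the chain, called genes were again found on both sides. Of 20 genes, 16 had enough counts, and 4 of these were higher in CD34hi and 3 in CD34lo, which is 43.8% called against 35.6% of all genes. *Glce*, the epimerase that makes iduronic acid, was at 138.6, 145.2 and 122.1 CPM in CD34hi and at 28.7, 20.3 and 32.7 CPM in CD34lo, without overlap (log2 fold change 2.31, SE 0.182, adjusted p = 3e-05, edgeR). *Hs3st1*, one of the 3-O-sulfotransferases that add a rare sulfate to the chain, was at 31.5 ± 5.68 CPM in CD34hi and 8.08 ± 1.12 CPM in CD34lo (SD, n = 3) (1.97, adjusted p = 5.8e-05, edgeR). Its relative *Hs3st3b1*, named after its values were seen, was higher in CD34hi as well (1.80, adjusted p = 0.00524, edgeR).

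The 3-O-sulfotransferase genes *Hs3st6* and *Hs3st5* were higher in CD34lo. *Hs3st6* had 11, 1 and 1 counts in CD34hi pools 1 to 3 and 827, 39 and 358 counts in CD34lo. All CD34lo libraries were above all CD34hi libraries, and CD34lo pool 2 was much lower than the other pools of its group. The summed rate in CD34lo was 105-fold that in CD34hi, with an exact 95% interval of 61.2 to 197.8 that covers counting error only (fitted log2 fold change -6.49, SE 1.03, adjusted p = 0.0014, edgeR). Without the CD34hi library of pool 1, which held 11 of the 13 CD34hi counts, the fitted value was -8.39. *Hs3st5* was at 0.0894, 0.607 and 0.0662 CPM in CD34hi and at 3.82, 0.863 and 4.4 CPM in CD34lo, pool 2 of CD34lo again being the lowest of its group (-3.65, SE 0.84, adjusted p = 0.0093, edgeR). Without the CD34hi library of pool 2 the *Hs3st5* value was -5.23, and the call was lost without pool 1 (adjusted p = 0.0718, edgeR) or pool 3 (adjusted p = 0.084, edgeR). *Hs3st3a1* was not called (-0.17, adjusted p = 0.826, edgeR), and *Hs3st2* and *Hs3st4* had 0 counts in every library.

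Smaller or less stable differences completed this list. *Ndst3*, an N-deacetylase and N-sulfotransferase, was called as higher in CD34hi (1.81, adjusted p = 0.0443, edgeR), but its level of 6.42 CPM in the CD34hi library of pool 3 stood above the 1.83 and 1.74 CPM of the other pools. Without that library the value was 0.91 (adjusted p = 0.174, edgeR), and the call was also lost without any single CD34lo library (adjusted p = 0.0643 to 0.125, edgeR). With all libraries, *Ndst3* was not called by limma-voom (adjusted p = 0.0669) or with upper-quartile scaling (adjusted p = 0.052, edgeR). *Hs2st1*, the 2-O-sulfotransferase, was higher in CD34lo (-0.37, adjusted p = 0.0383, edgeR). That call was lost without any one of the CD34hi libraries of pools 1 and 2 or the CD34lo libraries of pools 1 and 3 (adjusted p = 0.069 to 0.159, edgeR). With no filter on low counts the *Hs2st1* call was lost as well (adjusted p = 0.0673, edgeR). *Papss1*, which makes the sulfate donor and was the most abundant of the list per length, was not called (0.26, adjusted p = 0.0842, edgeR), and it passed only without the CD34hi library of pool 3 (0.32, adjusted p = 0.0472, edgeR).

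Genes for editing and breaking down finished chains were called only as higher in CD34hi. Of 11 genes 10 were tested, and 7 of these were higher in CD34hi and none in CD34lo, where 16.9% and 18.7% of all genes were, with a median log2 fold change of 0.48. *Sulf1*, an extracellular enzyme that removes 6-O-sulfates from heparan sulfate, was at 322.4, 304 and 304.5 CPM in CD34hi and at 56.9, 89.6 and 75.1 CPM in CD34lo. Every CD34hi library was far above every CD34lo library (log2 fold change 2.07, SE 0.172, adjusted p = 3.8e-05, edgeR). *Sulf2*, its relative (1.56, adjusted p = 0.000561, edgeR), and *Hpse*, the heparanase that cuts chains (2.10, adjusted p = 5.8e-05, edgeR), were likewise higher in CD34hi. The lysosomal enzyme genes *Gusb*, *Idua* and *Sgsh*, named after their values were seen, were called as higher in CD34hi with log2 fold changes of 0.45 to 0.73. Without the CD34hi library of pool 2, or without the CD34lo library of pool 3, 4 genes of this list were called in place of 7. Over all genes, 25.3% and 30.9% were called in these fits, against 35.6% with all libraries.

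Proteases that process or release the core proteins included the most strongly CD34hi gene of the lists. *Pcsk6*, a proprotein convertase of the furin family, was at 567.1, 547.3 and 464.7 CPM in CD34hi and at 28.2, 63.2 and 57.8 CPM in CD34lo, with no overlap (log2 fold change 3.41, SE 0.293, adjusted p = 4.6e-05, edgeR). Of 13 genes in this list 10 were tested, 3 being higher in CD34hi and 2 in CD34lo, against 16.9% and 18.7% of all genes. *Adam10* (0.89, adjusted p = 0.00128, edgeR) and *Adam17* (0.53, adjusted p = 0.0106, edgeR), membrane proteases that shed cell surface proteins such as syndecans, were the others in CD34hi. *Mmp3*, a secreted matrix protease (-1.71, adjusted p = 0.00152, edgeR), and *Pcsk5*, another convertase (-0.84, adjusted p = 0.00109, edgeR), were higher in CD34lo. *Mmp2* was the most abundant of the list per length and did not differ beyond the spread of the pools (0.21, adjusted p = 0.37, edgeR). *Notum*, which encodes a secreted enzyme, had 61 counts over all libraries and was not tested.

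Of 10 partners of the syndecan tail, 3 were higher in CD34hi and 3 in CD34lo, against 16.9% and 18.7% of all genes. *Sdcbp* encodes syntenin, a PDZ protein that binds the shared end printed above. It was the most abundant partner per length, at 336.3, 324.8 and 301.8 CPM in CD34hi and 333.4, 303.1 and 318.7 CPM in CD34lo, with overlapping ranges (log2 fold change 0.011, SE 0.115, adjusted p = 0.951, edgeR). *Prkca*, the protein kinase C isoform that binds the *Sdc4* product, was at 77.3 to 81.5 CPM in CD34hi and at 26.4 to 34.5 CPM in CD34lo (1.42, adjusted p = 5.8e-05, edgeR). *Tiam1*, an activator of Rac (0.86, adjusted p = 0.00101, edgeR), and *Cask*, another PDZ protein (0.62, adjusted p = 0.00621, edgeR), were higher in CD34hi too. *Ezr* (ezrin), which links membrane proteins to actin, was at 88.9 to 125.6 CPM in CD34lo against 15.5 to 19.0 CPM in CD34hi (-2.57, adjusted p = 1e-05, edgeR). *Actn1* (alpha-actinin, -2.10, adjusted p = 0.00131, edgeR) and *Gipc1*, an adaptor for *Sdc4* (-0.75, adjusted p = 0.00277, edgeR), were also higher in CD34lo. *Actn4*, the other alpha-actinin of the list, was not called (0.20, adjusted p = 0.211, edgeR).

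Of 6 other genes whose products can carry heparan sulfate, 3 were higher in CD34lo and none in CD34hi, against 18.7% and 16.9% of all genes. *Col18a1*, a basement membrane collagen, was at 1212, 929.9 and 1182 CPM in CD34lo and at 154.7, 111.3 and 135.8 CPM in CD34hi (log2 fold change -3.05, adjusted p = 7.9e-06, edgeR). *Nrp1*, a co-receptor for VEGF and semaphorins, was at 299.8 to 503.4 CPM against 127.8 to 152.5 CPM (-1.60, adjusted p = 0.000333, edgeR). *Hspg2*, which encodes perlecan and was the most abundant in this list per length over both groups, was at 1705 to 2257 CPM against 1105 to 1475 CPM (-0.65, adjusted p = 0.0178, edgeR). Its call was lost without the CD34hi library of pool 1 (adjusted p = 0.087, edgeR) or of pool 2 (adjusted p = 0.0753, edgeR). The list was the most sensitive to the model, since with the mouse pool as a block all 6 genes were called, 2 as higher in CD34hi and 4 in CD34lo, when 40.5% of all genes were called, 19.6% and 20.9% in these directions. *Agrn* (-0.55, adjusted p = 0.0266, edgeR with block), *Tgfbr3* (0.41, adjusted p = 0.0345) and *Cd44* (0.74, adjusted p = 0.0039) were the additions. Without the CD34hi library of pool 3, 5 genes of this list were called, and without that of pool 1 or pool 2, 2 genes were. Over all genes, 33.9%, 27.8% and 25.3% were called without the CD34hi libraries of pools 3, 1 and 2.

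**Figure D4:**
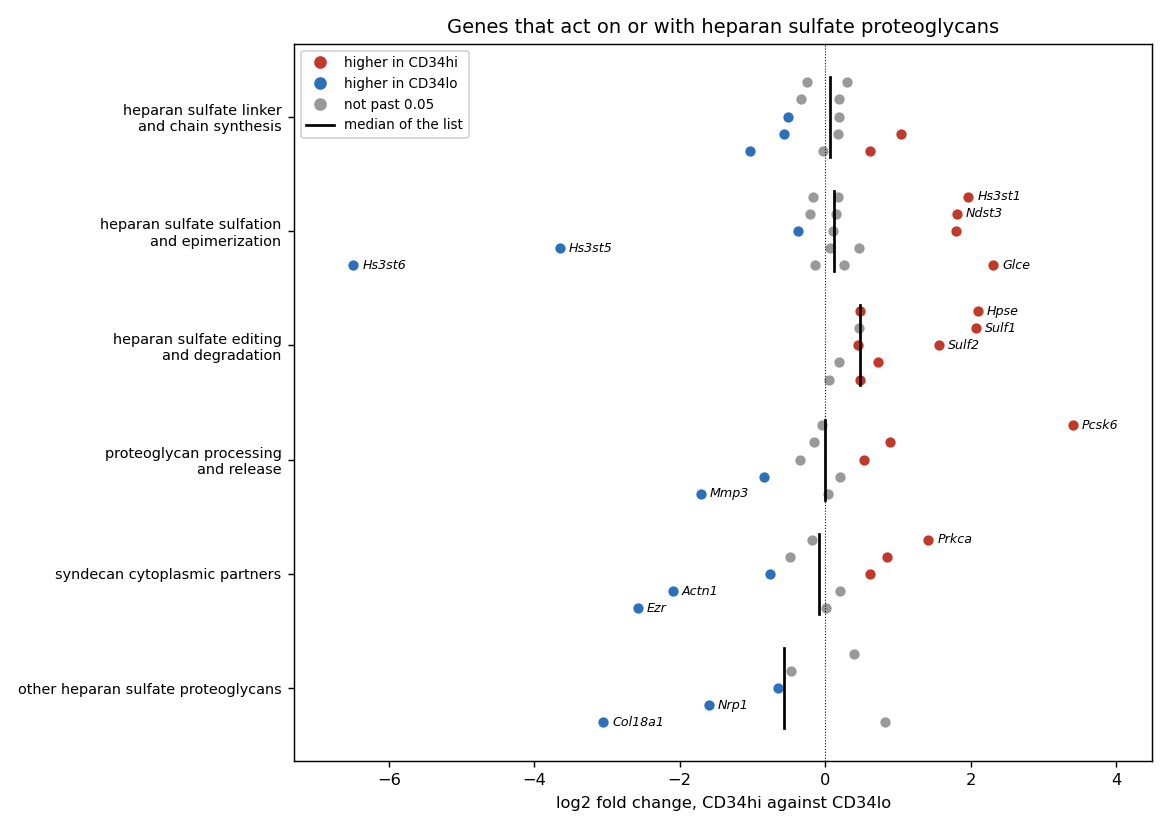
Log2 fold change of CD34hi against CD34lo for each tested gene of the 6 lists (points, staggered vertically so that they can be told apart), coloured by the edgeR call, with the median of each list as a black line. Editing and degradation genes lie at or above 0 with a median of 0.48, and in the other lists genes were called in both directions, except that the other proteoglycans had called genes only in CD34lo.

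Markers of other cell types were read beside these results. The 7 epithelial markers summed to 37.4 to 41.7 CPM in CD34hi and to 69.6 to 70.7 CPM in CD34lo, with *Itga6* and *Acta2* called as higher in CD34lo and *Epcam*, *Krt8*, *Krt18*, *Krt14* and *Krt5* not called. *Acta2* made up 28.1 to 38.2 CPM of the CD34lo sums. Endothelial markers summed to 8.74 to 25.1 CPM in CD34hi and 30.7 to 54.5 CPM in CD34lo (3 of 4 called), and pericyte markers to 4.46 to 6.08 CPM and 25.4 to 29.7 CPM (3 of 3 called). Of 3 keratinocyte markers 2 were higher in CD34hi and *Krt1* was at 0 throughout, with sums of 14.3 to 19.9 and 3.596 to 7.12 CPM. Macrophage, muscle, adipocyte and plasma cell markers summed to no more than 5.24 CPM in any library. The part of these cell types in the differences of *Gpc1*, *Sdc1* and the other members was not tested.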

How the data were processed

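Poly(A) RNA from the sorted cells was sequenced by the authors on an Illumina instrument after TruSeq RNA v2 library preparation. They aligned the reads to GRCm38/mm10 with Rsubread and deposited raw counts per gene and library, together with the exon length of each gene. The annotation, the strand setting and the handling of multi-mapping reads are not given in the sources used here, so reads of overlapping genes cannot be told apart, but genes overlapping a member had at most 40 counts in all. Symbols were matched to 25275 of 27179 gene IDs.

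From the deposited counts, genes were filtered by filterByExpr, which kept 15219, and scaled by TMM in edgeR 4.0.16 (R 4.3.3). CD34hi was compared with CD34lo with the quasi-likelihood test of edgeR, with no term for the mouse pool. P-values were adjusted over all genes tested by the method of Benjamini and Hochberg, at a threshold of 0.05. CPM are TMM-normalized, and RPKM are these divided by exon length in kilobases. Tests were checked on simulated data. An exact permutation test of 3 against 3 libraries cannot give a two-sided p below 0.1 and was not used. Depth was 28764779 to 52402410 counts per library, with a floor of 3 counts, and replicates differed by more than counting noise (chi-square per degree of freedom 23.4 to 113).

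Alternatives were limma-voom (limma 3.58.1), which the study used, DESeq2 1.42.0, other scalings (RLE, upper quartile) and filters (none, or at least 10 counts in every library), the mouse pool as a replicate block, and leaving out pools or libraries. Libraries with the same number came from the same mice, and their deviations from the group means correlated at r = 0.279, 0.0844 and 0.243 in pools 1, 2 and 3.

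The members and gene lists were chosen with earlier results of these data known. Besides all members and *Cd34*, the genes named were, in each list, the 3 with the largest called change on each side that moved the same way in every pool, and the one with the highest RPKM. Other genes named are said to be so, and a few results that fall under this rule or the marker lists are not reported here.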

Additional observations from a re-analysis of the deposited data

How the results depend on the processing

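Among the 9 tested members, 146 of 153 comparisons with an alternative (17 per gene) kept direction and call, 4 lost the call, 1 gained it and 2 reversed. *Gpc1*, *Gpc6* and *Sdc1* were called in all 17. *Gpc3* also lost its call without pool 1 (0.53, adjusted p = 0.131, edgeR) or pool 3 (0.55, adjusted p = 0.0616), and *Sdc4* without pool 1 (-0.94, adjusted p = 0.0516). *Sdc3* reversed without pool 3 (-0.42, adjusted p = 0.0499, edgeR) and without the CD34hi library of pool 3 (-0.54, adjusted p = 0.0292, edgeR). Both reversals thus passed the threshold, and they are not in the count of gained calls. *Sdc3* ranged from -0.54 to 0.73 when a pool or library was left out. *Sdcbp*, near 0 throughout, reversed with upper-quartile scaling (-0.042), with at least 10 counts in every library (-0.0040), and when pools or libraries were left out (-0.028 to 0.072). With a replicate block for the mouse pool in edgeR or limma-voom, 6 other heparan sulfate proteoglycans were called in place of 3, *Naglu* gained a call (0.50, adjusted p = 0.0399, edgeR with block), and no call of a member changed.

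When a pool or library was left out, the number of called genes ranged from 3 to 6 for the members, 1 to 5 for chain synthesis, 4 to 7 for sulfation, 3 to 8 for editing and degradation, 4 to 5 for processing, 4 to 6 for the syndecan partners and 2 to 5 for the other proteoglycans. Without pool 1, which leaves 2 pools per group, each list was at its lowest. Over all genes the share called was lowest there too, at 23% against 35.6% with all libraries. It was 23.4% to 33.9% in the other leave-out fits. *Hs3st5* and *Hs3st6* could not be fitted with at least 10 counts in every library. Of 559 comparisons for 33 other genes taken by the naming rule, 507 kept direction and call, 47 lost the call, 1 gained it and 4 reversed. Depth limits *Gpc5*, *Hs3st2*, *Hs3st4* and the CD34hi level of *Hs3st6*.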
